A study of Bos taurus with 14 samples.

Results

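Interferon tau and the trophoblast Kunitz domain proteins are secreted by the trophoblast of the early ruminant conceptus, and 4 of the 9155 genes named on the array belonged to them. The members were all probe sets whose single symbol in the platform annotation begins with IFNT or TKDP. These were 5 probe sets: 1 for IFNT2, 2 for TKDP1, 1 for TKDP2 and 1 for TKDP4. RNA came from 14 Holstein conceptuses flushed from recipient heifers on Day 15, from embryos sired by 1 bull, recovered on Day 6.5 and graded by morphology. The groups were 3 conceptuses from Grade 3 embryos, 5 long and 5 short conceptuses from Grade 1 embryos, and 1 Grade 1 conceptus with no length in its labels. Males numbered 2 of 3 in Grade 3, 1 of 5 in Grade 1 long and 2 of 5 in Grade 1 short, and the Grade 1 conceptus with no length was male. No group had a treatment or an altered genotype. Embryos were transferred in groups of 2 to 6 per recipient, and shared recipients or donors are not named in the labels.

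Interferon tau is the signal by which cattle and sheep recognise pregnancy. It acts through the type I interferon receptor of the uterine lining, where it blocks the pulses of prostaglandin that would end the life of the corpus luteum. The trophoblast Kunitz domain proteins belong to a ruminant family built around the fold of pancreatic trypsin inhibitor, and the trophoblast makes them in the weeks around attachment, when the conceptus elongates into a filament. In RefSeq's gene table (assembly ARS-UCD2.0), TKDP1, TKDP4 and TKDP2 follow each other on 1 chromosome, with 1 uncharacterised lncRNA locus between TKDP1 and TKDP4. IFNT2 lies between 2 pseudogenes, with IFNT3 and IFN-tau-c1 beyond them. The table names 4 interferon tau genes, and the platform annotation pairs a probe set with 1 of them, IFNT2. Copies of interferon tau are close in sequence, so how far the IFNT2 probe set also reads its neighbours is uncertain. The same holds among the Kunitz genes, above all for the TKDP1 probe set whose identifier ends in _s_at, a suffix Affymetrix gave to probe sets shared by several transcripts.

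All values are log2 expression values made by the authors with RMA, which corrects background, evens out the arrays and summarises the probes of each probe set. A value of 1 log2 unit is a doubling of signal. The arrays held 24016 probe sets after controls were removed, with array medians from 5.62 to 5.72 and correlations between arrays from 0.984 to 0.997. Of the epithelial keratins measured, KRT18 and KRT19 were bright, at 14.47 and 13.48 in long and 14.46 and 13.28 in short conceptuses, and KRT8 was lower, at 6.06 in long and 6.20 in short ones. One conceptus, Grade 1 short replicate 1, is called long in one label and short in another, and it was counted as short. Grade 1 short replicate 5 had the lowest value of all 14 conceptuses in 4 of the 5 member probe sets, so results that rest on it are also given without it.

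Interferon tau gave the highest signal of all probe sets on 9 of the 14 arrays and ranked no lower than 4 on any. IFNT2 measured 14.56, 14.48 and 14.48 in Grade 3 conceptuses. It measured 14.61, 14.59, 14.55, 14.59 and 14.56 in long Grade 1 conceptuses, against 14.45, 14.48, 14.60, 14.52 and 14.37 in short ones. The conceptus with no length had 14.55. The long and short groups overlapped, since short replicate 3 was above 4 of the 5 long conceptuses, while short replicate 5 was the lowest of all 14. From the lowest to the highest conceptus the signal spanned 1.18 fold, and its SD of 0.07 across the 14 was larger than that of only 2.10% of all probe sets.

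TKDP1, the other member near the top of the arrays, was read by 2 probe sets. The one ending in _at measured 14.47, 14.45 and 14.47 in Grade 3. In long conceptuses it measured 14.55, 14.53, 14.52, 14.57 and 14.54, against 14.52, 14.43, 14.42, 14.35 and 13.91 in short ones, and it was 14.43 in the conceptus with no length. Long conceptuses thus lay within a narrow band, and only short replicate 1 reached into it. The probe set ending in _s_at measured 14.24, 14.18 and 14.27 in Grade 3. It measured 14.35, 14.37, 14.31, 14.33 and 14.32 in long conceptuses, against 14.26, 14.14, 14.00, 13.89 and 13.23 in short ones, with 14.23 in the conceptus with no length. Here every long conceptus was above every other conceptus.

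TKDP4 varied most among the members over all 14 conceptuses, 8.29 fold between its lowest and highest conceptus. This rank rested on short replicate 5, the lowest at 10.44. Without that conceptus TKDP4 ran from 11.83 to 13.49, a narrower range than that of TKDP2, from 4.07 to 5.87. It measured 12.69, 12.01 and 11.96 in Grade 3. In long conceptuses TKDP4 measured 13.49, 13.41, 13.10, 12.84 and 12.88, against 12.93, 12.46, 12.08, 11.83 and 10.44 in short ones. The conceptus with no length had 12.03. The long and short groups overlapped through short replicate 1 alone, which was above long replicates 4 and 5. The SD of TKDP4 over the 14 conceptuses, 0.80, was larger than that of 99.3% of all probe sets, against a median of 0.15.

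TKDP2 was dim, with a mean above that of 38.1% of probe sets. It measured 4.57, 4.38 and 4.68 in Grade 3. It measured 5.02, 5.69, 5.87, 4.71 and 5.17 in long conceptuses, against 4.26, 4.94, 4.26, 4.07 and 4.15 in short ones, and 4.57 in the conceptus with no length. Long conceptuses were higher than short ones except that short replicate 2 was above long replicate 4. No background level of the arrays was used here, so what part of the TKDP2 signal is TKDP2 RNA is unknown. The spread over the 14 conceptuses was 3.49 fold.

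**Figure D1:**
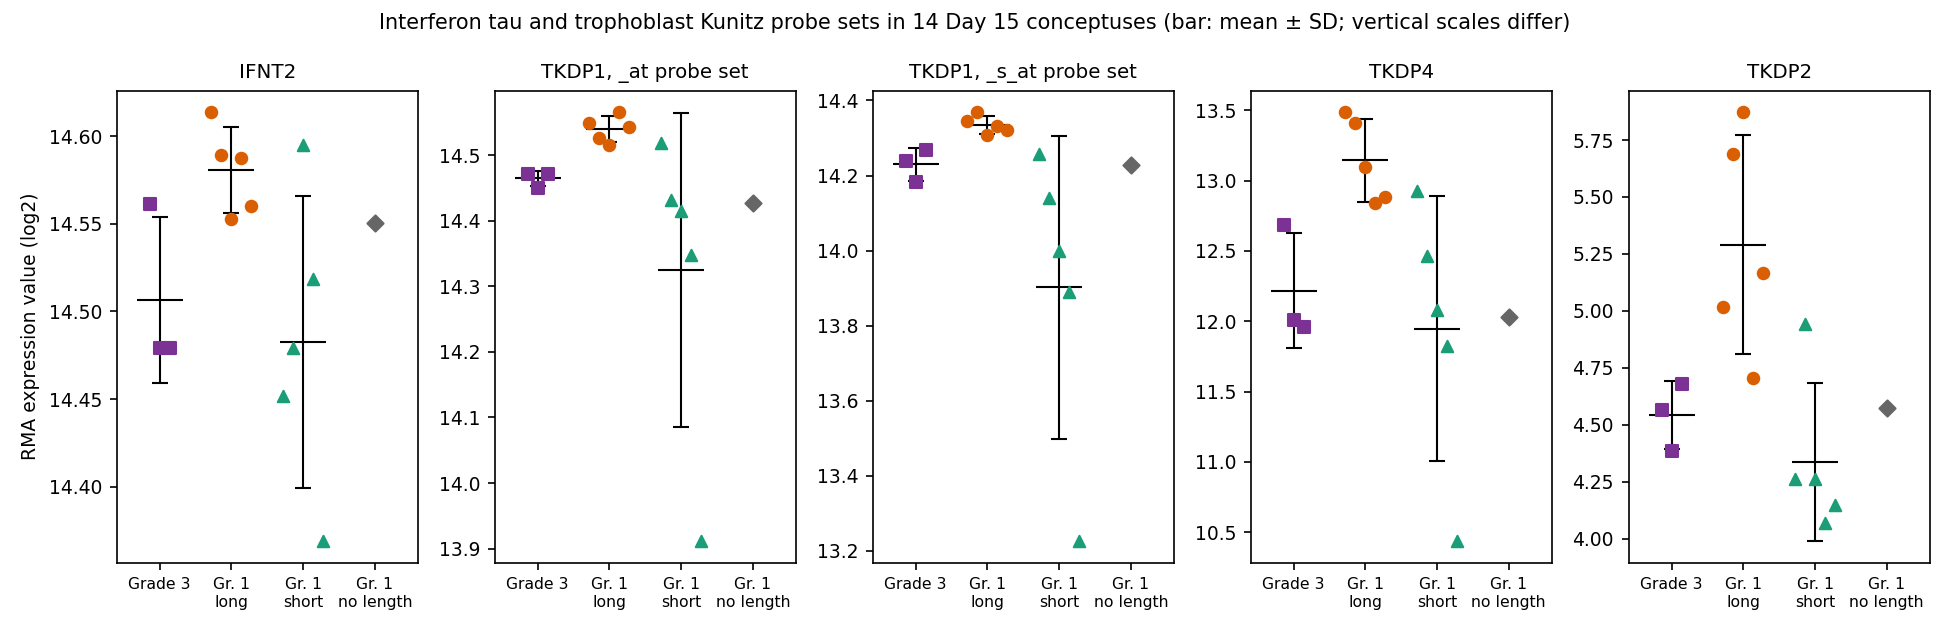
RMA expression values (log2) of the 5 probe sets, 1 point per conceptus, with the mean and SD of each group as bars; vertical scales differ between panels. Long Grade 1 conceptuses lie highest on average in every panel, and Grade 1 short replicate 5 is the lowest point for IFNT2, both TKDP1 probe sets and TKDP4.

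The order of the group means was similar in all 5 probe sets, with long Grade 1 conceptuses highest and short ones lowest. For TKDP4 the means were 12.22 ± 0.41 (SD, n = 3) in Grade 3, 13.14 ± 0.30 (SD, n = 5) in long and 11.95 ± 0.94 (SD, n = 5) in short conceptuses. For TKDP2 they were 4.54 ± 0.15 (SD, n = 3), 5.29 ± 0.48 (SD, n = 5) and 4.34 ± 0.35 (SD, n = 5) in the same groups. The conceptus with no length lay between the long and short means in each probe set, as did the Grade 3 mean. This order rested in part on short replicate 5. Without it the short mean of TKDP4 was 12.33, above Grade 3, that of IFNT2 was 14.51, level with Grade 3, and that of the TKDP1 _at probe set was 14.43, level with the conceptus with no length. Grade 3 and short Grade 1, neighbours in this order, did not differ beyond their spread in any member by the tests given further on. In RNA of entire conceptuses, fewer cells of a type and less RNA per cell cannot be told apart.

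The comparison of long with short conceptuses asked which transcripts track elongation among embryos of equal grade. All 5 probe sets had higher means in long conceptuses, and 1 of them, TKDP2, passed limma over all probe sets, where 6.57% passed in either direction and 2.7% were higher in long. TKDP2 rose by 0.95 ± 0.23 (SE; 1.94 fold, 95% interval 1.38 to 2.73; limma adjusted p = 0.0331). TKDP4 had the larger difference, 1.20 ± 0.37 (SE; 2.29 fold, interval 1.31 to 4.02), with a larger spread, and did not pass (limma adjusted p = 0.0782). Without short replicate 5 it had the smaller one, 0.82 against 0.91 for TKDP2. The median difference over the 5 was 0.43, against -0.02 over all probe sets.

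The probe sets nearest the top of the arrays differed least. TKDP1 was higher in long conceptuses by 0.43 ± 0.16 in the _s_at probe set and by 0.21 ± 0.10 in the brighter _at probe set (SE), and neither passed (limma adjusted p = 0.130 and 0.245). Without short replicate 5 these differences were 0.26 and 0.11. IFNT2 was higher by 0.10 ± 0.06 (SE; interval -0.03 to 0.22; limma adjusted p = 0.363). That interval leaves room for up to 1.17 fold more IFNT2 signal in long conceptuses. IFNT2 was the highest value of its array in all 5 long conceptuses, and the _at probe set of TKDP1 was the next highest there, between 0.02 and 0.06 below it. Whether the signal of these probe sets had reached a limit, which would narrow a difference, was not tested.

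**Figure D2:**
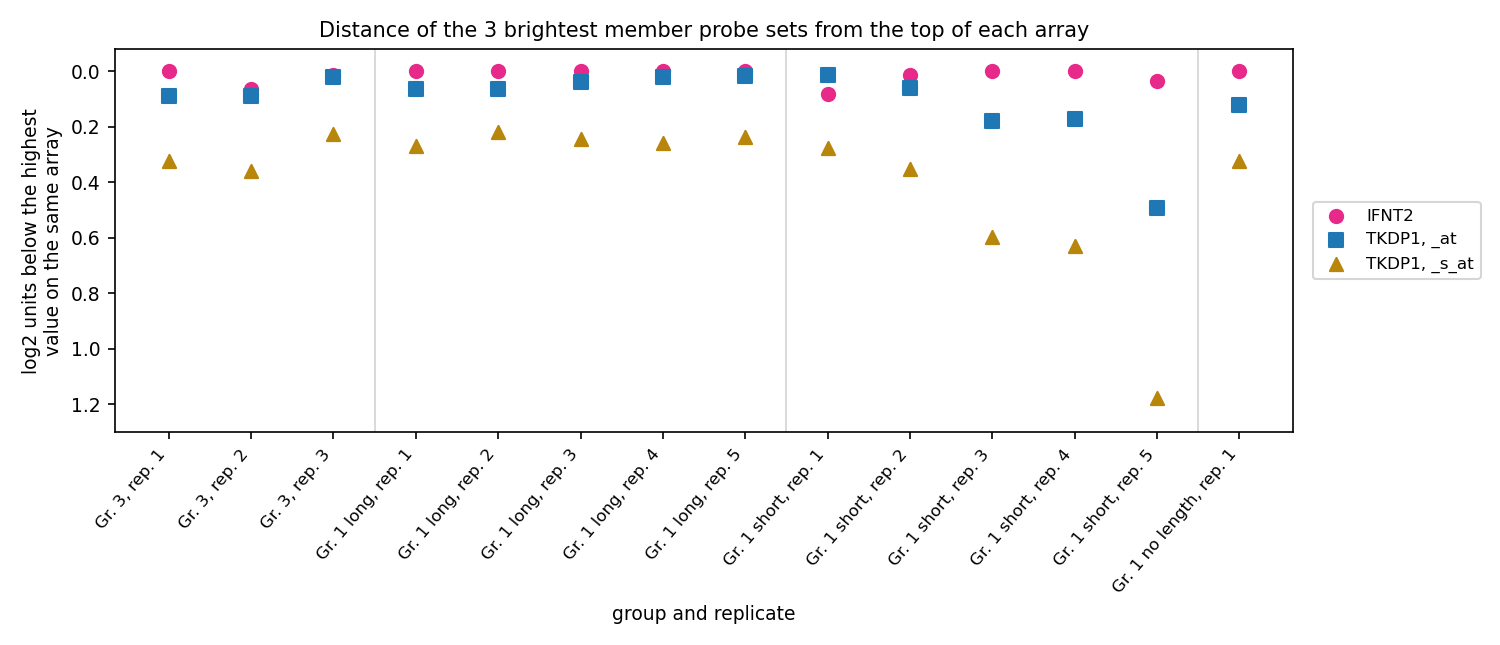
Distance in log2 units from each of the 3 brightest member probe sets to the highest value on the same array, for the 14 conceptuses; 0 at the top of the axis means that the probe set is itself the highest. In long conceptuses IFNT2 is at 0 and both TKDP1 probe sets sit at nearly constant distances, and in Grade 1 short replicate 5 the TKDP1 probe sets lie 0.49 and 1.18 below the top.

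The groups did not overlap in 1 of the 5 probe sets, the _s_at probe set of TKDP1, where the long values were above; over all probe sets 8.42% did not overlap, and in 2.9% every long value was above every short one. Exact two-sided permutation tests over the 10 conceptuses gave p = 0.00794 for that probe set, the smallest that 5 against 5 allows. Groups of 5 that do not overlap always give that value, so it restates the separation. The tests gave p = 0.0159 for the _at probe set of TKDP1 and for TKDP2, 0.0238 for TKDP4 and 0.0476 for IFNT2, exact and two-sided. These p-values are not adjusted for the 25 such tests made over all comparisons. With limma, 3 of the 5 had an unadjusted p under 0.05, as did 5274 of all 24016 probe sets.

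Short conceptuses were also more variable than long ones in 4 of the 5 probe sets. The SD of TKDP4 was 0.30 in long and 0.94 in short conceptuses, and 0.48 in the short ones without replicate 5. That of the TKDP1 _s_at probe set was 0.02 in long and 0.40 in short conceptuses, and 0.16 without replicate 5. TKDP2 was the exception, with 0.48 in long and 0.35 in short conceptuses. These spreads were compared without a test. Both TKDP1 probe sets and TKDP4 put the 5 short conceptuses in the same order, with the 2 males highest; the order of the 5 long conceptuses differed between TKDP1 and TKDP4.

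The calls changed when single conceptuses were left out, and the differences less so. TKDP2 kept a difference of 0.81 to 1.11 throughout and its call in 3 of the 10 fits that left out 1 conceptus, those without short replicate 1, short replicate 2 or long replicate 4, and reached adjusted p = 0.0822 in limma without long replicate 2. Over all probe sets 1577 passed with all 10 conceptuses and as few as 460 with 1 left out. TKDP4 passed in 1 of them, without short replicate 1, the conceptus whose labels disagree (1.44, limma adjusted p = 0.0346); its difference was 0.82 without short replicate 5. Counting short replicate 1 as long took the call from TKDP2 (0.76, limma adjusted p = 0.164) and gave one to TKDP4 (1.41, limma adjusted p = 0.0487). Over all probe sets 492 passed in that fit, and 1697 in the fit without short replicate 1. With sex as a covariate both passed, TKDP2 at 0.98 (limma adjusted p = 0.0284) and TKDP4 at 1.38 (limma adjusted p = 0.019). More probe sets passed in general with that covariate, 2403 of 24016 against 1577 without it. The sign was positive in all 95 values that the 5 probe sets had under other settings or with a conceptus left out. Settings that change only the variance or the probe sets tested leave a difference as it was, so their signs were fixed. The other fits reuse the same arrays, so the 95 values are not independent.

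Sample titles share 7 prefixes whose meaning the labels do not give, and 2 of them hold both lengths. In the prefix with 2 long and 1 short conceptus, long minus short was 0.98 for TKDP4, 0.41 for TKDP2, 0.22 and 0.11 for the _s_at and _at probe sets of TKDP1, and 0.12 for IFNT2. In the prefix with 1 long and 2 short conceptuses the differences were 1.14 for TKDP4, 1.71 for TKDP2, 0.36 and 0.13 for TKDP1, and -0.00401 for IFNT2. The 3 Kunitz genes thus had higher long values within both prefixes. With the prefix as a fixed block TKDP4 passed at 1.06 (limma adjusted p = 0.016) and TKDP2, also at 1.06, did not (limma adjusted p = 0.155). In that fit 112 of 24016 probe sets passed. Its differences rest on the conceptuses of the 2 prefixes with both lengths alone. Among females alone, TKDP4 averaged 13.06 in 4 long and 11.45 in 3 short conceptuses, and TKDP2 averaged 5.36 and 4.16 in the same groups. Among males, with 1 long and 2 short conceptuses, the differences were smaller, 0.79 for TKDP4 and 0.42 for TKDP2. In females they were 1.61 and 1.20.

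**Figure D3:**
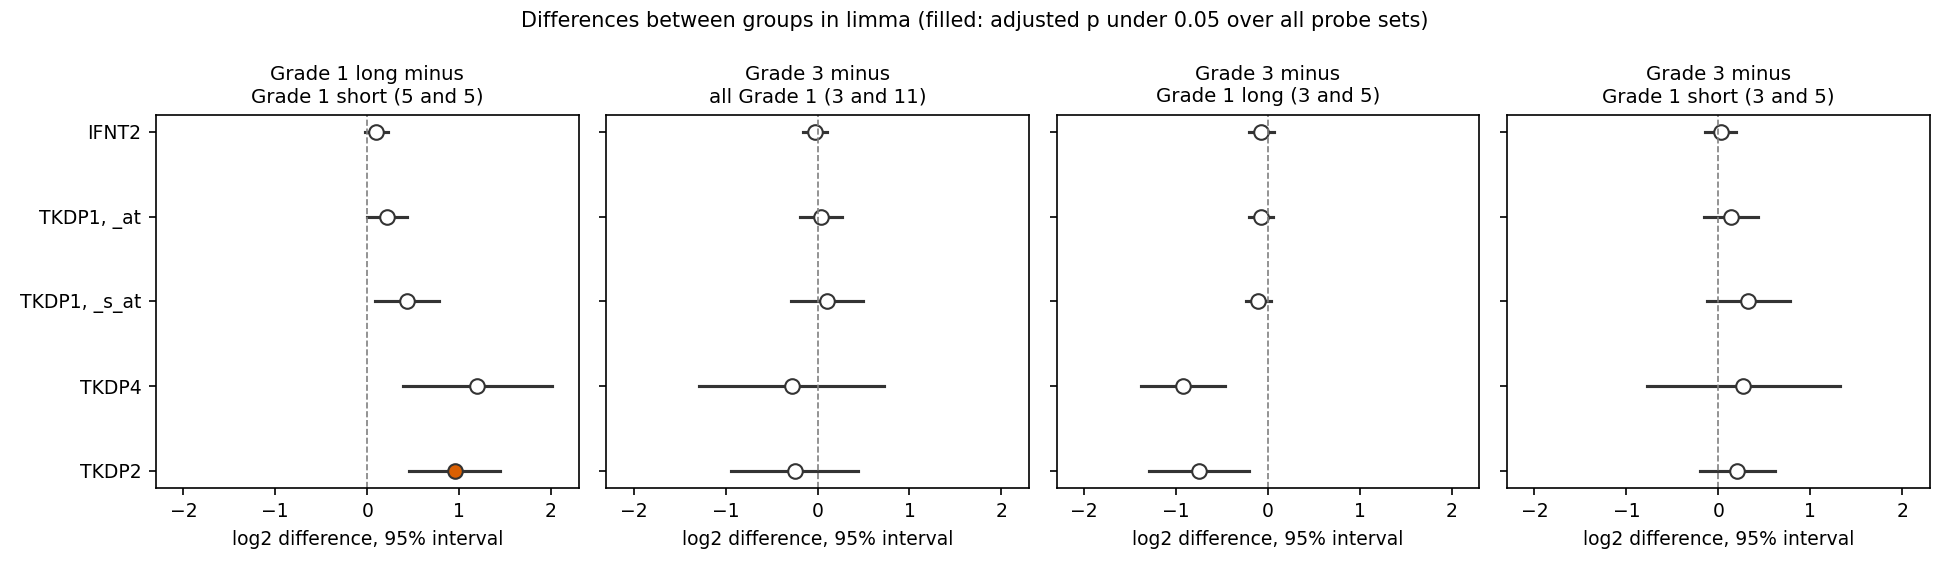
Log2 differences between groups for the 5 probe sets with their 95% intervals from limma, 1 panel per comparison; a filled point marks an adjusted p under 0.05 over all probe sets. TKDP4 and TKDP2 have the largest differences between long and short Grade 1 conceptuses and between Grade 3 and long ones, and TKDP2 between long and short is the one filled point.

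The comparison of grades asked whether poorer morphology on Day 6.5 left a mark on these genes at Day 15. Of the 7 title prefixes, 0 held both grades. Grade and title prefix therefore cannot be told apart in any comparison with Grade 3. None of the 5 probe sets passed limma between the 3 Grade 3 and the 11 Grade 1 conceptuses; 0% of all probe sets passed, and 0 of the 5 had an unadjusted p under 0.05, as did 1215 of 24016 overall. TKDP4 was 12.22 ± 0.41 in Grade 3 and 12.50 ± 0.88 in Grade 1 (SD, n = 3 and 11), a difference of -0.28 with an interval of -1.29 to 0.72. IFNT2 differed by -0.03 (interval -0.15 to 0.10), TKDP2 by -0.25 (interval -0.94 to 0.44), and the TKDP1 probe sets by 0.10 (_s_at) and 0.03 (_at), or 0.01 and -0.02 without short replicate 5. The groups overlapped in all 5, whereas 0.554% of all probe sets did not overlap. The Grade 1 values ran from 10.44 through a median of 12.84 to 13.49 for TKDP4, so they held the whole Grade 3 range.

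Because Grade 1 held both lengths, Grade 3 was also set against each length. Grade 3 was lower than long Grade 1 in the means of all 5 probe sets. TKDP4 differed by -0.93 ± 0.20 (SE; 0.526 fold, interval 0.383 to 0.723) and TKDP2 by -0.75 ± 0.24 (SE; 0.595 fold, interval 0.409 to 0.865). None passed limma (adjusted p = 0.271 and 0.374), as 0% of all probe sets did; 2 of the 5, TKDP4 and TKDP2, had an unadjusted p under 0.05, and 2425 of 24016 had one overall. TKDP1 differed by -0.10 (_s_at) and -0.08 (_at), and IFNT2 by -0.07.

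In 4 of the 5 probe sets every Grade 3 conceptus was below every long one, IFNT2 being the exception; 7.14% of all probe sets did not overlap between these groups. Exact two-sided permutation gave p = 0.0179, the smallest that 3 against 5 allows, for TKDP4 and both TKDP1 probe sets, and 0.0536 for TKDP2 and IFNT2. The TKDP4 difference lay between -1.16 (without Grade 3 replicate 1) and -0.80 (without Grade 3 replicate 3) when 1 conceptus was left out. In none of these fits did a member pass.

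Grade 3 was set against short Grade 1 in a comparison that shares the Grade 3 arrays with the one before. The means of all 5 were higher in Grade 3, by 0.27 for TKDP4 (interval -0.78 to 1.32), 0.21 for TKDP2 (interval -0.20 to 0.62), 0.33 and 0.14 for the _s_at and _at probe sets of TKDP1 and 0.02 for IFNT2. None passed limma, where 0% of all probe sets passed; 0 of the 5 and 2054 of 24016 had an unadjusted p under 0.05. The groups overlapped in each member, against 6.08% of all probe sets that did not overlap. Without short replicate 5 the TKDP4 difference was -0.11 and that of the TKDP1 _s_at probe set 0.16, so their size and, for TKDP4, its sign rested on that conceptus.

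Interferon tau output is known to differ between male and female bovine blastocysts in culture, and the labels give the sex of each conceptus. None of the 5 probe sets passed between 6 males and 8 females with grade as a covariate, where 0.362% of all probe sets passed limma. IFNT2 averaged 14.52 ± 0.06 in males and 14.53 ± 0.08 in females (SD, n = 6 and 8), a difference of -0.0035 (interval -0.12 to 0.11; limma adjusted p = 0.995). TKDP4 was higher in males by 0.35 (interval -0.52 to 1.22). This value was 0.098 without short replicate 5, 0.16 without long replicate 1, 0.53 without the conceptus with no length and 0.77 with group in place of grade as the covariate. In the fit with grade, TKDP2 differed by -0.07 and the TKDP1 probe sets by 0.16 (_s_at) and 0.07 (_at). Male and female values overlapped in each, and 0.491% of all probe sets did not overlap. Of the 5, 0 had an unadjusted p under 0.05, as did 1928 of 24016.

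Across the 14 conceptuses the Kunitz genes varied together more closely than any of them did with interferon tau once 1 conceptus was set aside. TKDP4 correlated with the TKDP1 _s_at probe set at r = 0.88 (rho = 0.82) and with TKDP2 at r = 0.68 (rho = 0.71). With IFNT2 it correlated at r = 0.72 (rho = 0.57). Without short replicate 5 these were 0.74, 0.70 and 0.46. The points share the length groups and, in part, the title prefixes, so these values describe the 14 arrays, and no test was made. The TKDP1 probe sets correlated with each other at r = 0.98, or 0.91 without short replicate 5.

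**Figure D4:**
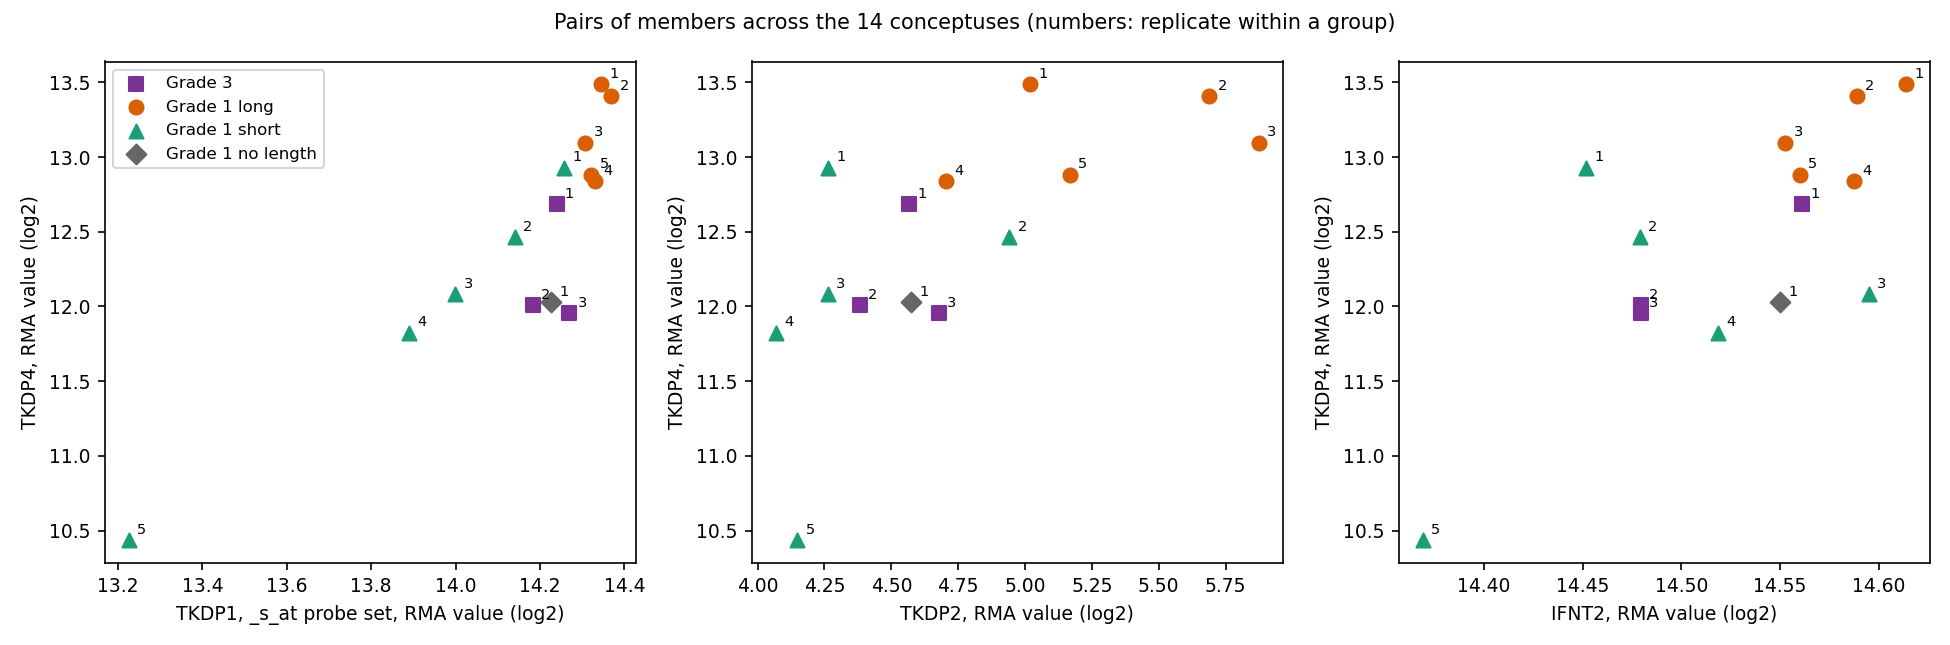
TKDP4 against the TKDP1 _s_at probe set, TKDP2 and IFNT2 in RMA values (log2), 1 point per conceptus, numbered by replicate within its group. Grade 1 short replicate 5 lies at the lower end of both axes in the panels for TKDP1 and IFNT2, and without it the correlation of TKDP4 with IFNT2 is 0.46, against 0.72 with it.

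The genes whose profile was most like each member were drawn from 1061 other named genes with an SD of at least 0.3. For TKDP4 they were the actin-binding tropomyosin TPM4 (r = 0.96), the galactose mutarotase GALM (0.94), the mitochondrial acetyl-CoA synthetase ACSS1 (0.93) and the Notch target HEY1 (0.92), with 0.85 to 0.91 without short replicate 5. For both TKDP1 probe sets they were PTGS2, which makes prostaglandin precursors, the fatty acid receptor PPARG, the aspartic proteinase relative PAG2 and the cell cycle inhibitor CDKN1C. In the _s_at probe set their r was 0.98, 0.97, 0.97 and 0.97, and in the _at probe set 0.95, 0.97, 0.96 and 0.95. Without short replicate 5 the r of PTGS2 was 0.91 and 0.73 with these probe sets. That of PPARG was then 0.83 and 0.83, that of PAG2 0.82 and 0.77, and that of CDKN1C 0.82 and 0.71. For TKDP2 they were the carbonyl reductase CBR3 (0.89), the enoyl-CoA isomerase ECI2 (0.87), the fatty acid elongase ELOVL5 (0.87) and PRR15 (0.83). For IFNT2, whose own spread was small, they were the caveolin CAV2 (0.88), the acyltransferase AGPAT1 (0.85), MYOZ1 (0.85) and TRIQK (0.83). Without short replicate 5 the r of these genes was 0.81, 0.82, 0.73 and 0.69. All are likenesses with no test, over 14 conceptuses unless 1 is said to be left out.

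Genes known to regulate interferon tau transcription, or to act in the trophoblast programme that allows it, included 12 measured of 18 listed. Over all probe sets 2.7% passed as higher in long conceptuses. Between long and short conceptuses 1 of the 12 rose and 0 fell, with a median difference of -0.18. The one that passed was the trophoblast transcription factor TFAP2A, at 10.86 in long and 10.48 in short conceptuses (0.38 ± 0.10, SE; limma adjusted p = 0.045). Leaving out 1 conceptus at a time kept its difference between 0.28 and 0.43 and cost it the call in 8 of 10 fits, up to adjusted p = 0.0982 in limma without long replicate 2. ETS2, which activates the interferon tau promoter, was 9.54 in long and 10.06 in short conceptuses (limma adjusted p = 0.291). POU5F1, which restrains ETS2 at that promoter, was 7.32 in long and 8.14 in short conceptuses (-0.82 ± 0.25, SE; limma adjusted p = 0.0704). In the comparison of sexes ETS2 was the 1 gene of the list that passed, at 10.38 in males and 9.57 in females (0.79 ± 0.16, SE; limma adjusted p = 0.04995). Its other probe set gave 0.81 (adjusted p = 0.128 in limma), and the call was lost in 12 of the 14 fits that left a conceptus out, up to an adjusted p of 0.163 in limma without short replicate 2. None of the 12 passed between grades or between Grade 3 and either length, where 0% of all probe sets passed. Between the sexes 0.362% of all probe sets passed.

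Of the type I interferon receptor and its relay, 7 of 10 listed genes were measured and 0 passed in any of the 5 comparisons. Over all probe sets 6.57% passed between long and short, 0.362% between the sexes and 0% in those with Grade 3. A count of 0 among 7 genes is near these shares. The receptor subunits IFNAR1 and IFNAR2 measured 3.43 and 3.91 in long conceptuses, against 3.29 and 4.07 in short ones. USP18, an interferon-induced brake on the receptor, was 8.04 in long and 7.13 in short conceptuses (0.92 ± 0.27, SE; limma adjusted p = 0.062), and the kinase JAK1 10.05 and 9.75 (limma adjusted p = 0.0624). Of the other interferons, IFNAC and IFNB1 were measured, and neither passed: IFNAC measured 6.66 in long and 6.54 in short conceptuses, and IFNB1 3.27 and 3.12. Of 19 listed other genes with a Kunitz domain, 7 were measured and 0 passed in any comparison, again near those shares. Their median difference was 0.07 between long and short. Among them SPINT2, a membrane-bound inhibitor of serine proteases, measured 11.02 in long and 10.87 in short conceptuses, and APP, the amyloid precursor, 7.93 and 7.47.

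Markers of the cells that could make up or accompany a conceptus were averaged as lists. The mean log2 level in long and short conceptuses was 8.39 and 8.13 for hypoblast, and 6.37 and 6.13 for binucleate trophoblast markers. It was 9.59 and 9.64 for trophectoderm, 4.85 in both for endometrial, and 4.42 and 4.55 for blood and immune markers. Averaged over 7 measured trophectoderm markers of 10 listed, the log2 level ran from 9.64 to 9.77 in Grade 3, from 9.51 to 9.64 in long and from 9.59 to 9.71 in short conceptuses. Over all probe sets 6.57% passed between long and short, and 2.7% passed as higher in long. Between long and short, 1 of the 7 rose (TFAP2A) and 1 fell, the trophoblast progenitor factor ASCL2, at 10.98 in long and 11.47 in short conceptuses (limma adjusted p = 0.043; 0.102 without long replicate 2, and above 0.05 in 8 of the 10 such fits). CDX2 and GATA3, which define the trophectoderm, were not analysed here. Of 7 hypoblast markers 2 rose: the lipoprotein APOA1, at 13.18 in long and 12.59 in short conceptuses, and the retinol carrier RBP4, at 7.94 and 6.64 (limma adjusted p = 0.00982 and 0.0167). Neither passed with a fixed block for title prefix (limma adjusted p = 0.145 and 0.164) or with short replicate 1 counted as long (limma adjusted p = 0.0600 and 0.240), where the RBP4 difference was 0.86. The median difference of the hypoblast list was -0.11. GATA4, GATA6, TTR and AFP were lower in long conceptuses, by -0.11, -0.18, -0.11 and -0.16, and FN1 was higher, by 0.43, and none of them passed. The hypoblast list averaged 8.21 to 8.61 in Grade 3, 8.32 to 8.55 in long and 7.99 to 8.37 in short conceptuses. None of 5 binucleate trophoblast, 7 endometrial or 8 blood and immune markers passed, which in lists so short is near the share of 6.57%. Their averages were 6.25 to 6.53, 4.75 to 4.98 and 4.38 to 4.50 in long conceptuses, against 6.04 to 6.31, 4.67 to 4.98 and 4.43 to 4.63 in short ones. Within the binucleate list CSH2 and PRP1 were dim, at 3.40 and 2.70 in short conceptuses. The lowest value of the arrays was 2.23. PRL, HSD3B1 and CYP11A1 were brighter, at 9.98, 8.45 and 6.13 in short conceptuses, and carried the list average. Long minus short was 0.65 for CYP11A1, 0.25 for HSD3B1, 0.18 for CSH2, 0.08 for PRP1 and 0.03 for PRL. What part these cell types had in the differences of TKDP2 and TKDP4 was not tested.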

How the data were processed

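Total RNA of 14 conceptuses was labelled with biotin (250 ng each) and hybridised to 1 Affymetrix bovine array per conceptus, per the labels' protocols. The deposited values are on a log2 scale, 1 per probe set. According to the submitters' processing notes the authors used Affymetrix Expression Console and RMA; neither versions nor the arrays normalised together are stated in the sources used here. RMA removes shifts common to all genes and compresses small differences at low signal. The table held 24128 probe sets; 112 controls were left out. Arrays have no read depth, and their number limits the precision.

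Groups came from the labels, with replicates numbered in accession order. The design text compares 4 unnamed Grade 1 conceptuses with Grade 3, so all 11 were used. Nothing says that conceptuses are independent beyond being separate samples, so p-values measure the spread between them. Each comparison was 1 fit with limma 3.58.1 (lmFit, eBayes) in R 4.3.3, Benjamini-Hochberg adjustment over 24016 probe sets and a two-sided threshold of 0.05. The fit was checked on simulated data. Single members were also tested by exact permutation. Genes outside the members were represented by their brightest probe set, and likeness was ranked by Pearson r (4 genes per member). All 4 member genes matched RefSeq (ARS-UCD2.0) by Entrez number. Alternatives were another quantile normalisation, median centring, a minimum mean of 4, a trended robust prior, a shared spread, sex as a covariate, the title prefix as a block, the relabelled conceptus and leaving out each conceptus. The members and lists were chosen with earlier results of these data known.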

Additional observations from a re-analysis of the deposited data

Results flagged for a closer look

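Within groups of 5, 2 values stood apart from the rest of their group by Dixon's test, among 10 groups tested; chance marks about 1 group in 20. The _at probe set of TKDP1 was 13.91 in Grade 1 short replicate 5, where the other 4 short conceptuses lay between 14.35 and 14.52. This is the conceptus with the lowest TKDP4 and IFNT2 values of all 14. TKDP2 was 4.94 in Grade 1 short replicate 2, where the other 4 short conceptuses lay between 4.07 and 4.26. That conceptus shares its title prefix with long replicates 1 and 2, which measured 5.02 and 5.69, and with the conceptus with no length, at 4.57.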

How the results depend on the processing

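Between long and short conceptuses the count of member probe sets that passed was 1, and 2 with sex as a covariate. Over all 24016 probe sets 1577 and 2403 passed in these fits. With 1 conceptus left out the member count lay between 0 and 2. It stayed at 1 with a further quantile normalisation, median centring, the minimum mean, the trended prior, the shared spread, the prefix as a random or fixed block and the relabelled conceptus, though under the last 2 the call was on TKDP4. In the other 4 comparisons it was 0 in each setting. Differences that changed sign were those of members that did not pass. For Grade 3 against short Grade 1, IFNT2 was -0.00014 with a further quantile normalisation and -0.0045 to 0.052 with 1 conceptus left out, and TKDP4 was -0.11 to 0.52. For grade, the TKDP1 _at probe set was -0.020 to 0.046. For sex, IFNT2 was 0.0097 and TKDP2 0.16 with group in place of grade as the covariate, and with 1 conceptus left out they were -0.025 to 0.017 and -0.16 to 0.071. Replicate numbers follow accession order and pair no samples, so the title prefix served as the block. Whether signal near the top of the arrays limited IFNT2 and TKDP1, or low signal TKDP2, was not tested.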

Other observations

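The 2 probe sets of TKDP1 drew apart in some short conceptuses. The _at probe set exceeded the _s_at probe set by 0.20 to 0.27 in Grade 3, by 0.16 to 0.24 in long and by 0.26 to 0.69 in short Grade 1 conceptuses, with the widest gap in short replicate 5. The gap was 0.20 in the conceptus with no length. Both probe sets cite the same sequence record, and the cause of the widening was not tested.

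Grade 1 short replicate 1, whose labels disagree on its length, lay with the long conceptuses in some members and with the short ones in others. Its TKDP4 (12.93) and its TKDP1 _at value (14.52) were within the long ranges of 12.84 to 13.49 and 14.52 to 14.57. Its TKDP2 (4.26), IFNT2 (14.45) and TKDP1 _s_at value (14.26) were below every long conceptus, of which the lowest had 4.71, 14.55 and 14.31.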
